A study of Mus musculus with 6 samples.

Results

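Integrins, laminins and the large matrix glycoproteins were followed as 38 genes, measured by 72 probe sets, out of 12393 genes in all. The members were taken by name: each probe set annotated to a single gene symbol that is Itga or Itgb plus a number, Lama, Lamb or Lamc plus a number, or 1 of a set of named matrix genes, from Fn1 and Vcan to Thbs1 and Dag1. The rule itself uses names and no measured value, but it was set with earlier results of these data known. Itgav, Itga2b and other integrin symbols that do not end in a number fell outside it, and Fbn1, which the rule names, had no probe set of its own and is not analysed here. By role the members comprise 8 integrin alpha chains, 7 integrin beta chains, 10 laminin chains, 4 basement membrane linkers (Nid1, Nid2, Hspg2 and Dag1), 4 genes of fibronectin and microfibrils (Fn1, Fbn2, Fbln1 and Fbln2) and 5 matricellular or proteoglycan genes (Vcan, Tnc, Sparc, Postn and Thbs1).

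The samples were 3 pools of Dll3 mutant embryos and 3 pools of wild-type embryos at 9.5 days post coitum, all labelled as C57BL/6. The mutants were Dll3neo/neo, homozygous for an allele labelled Dll3tm1Rbe, and the wild-type embryos were Dll3+/+. Dll3 encodes a divergent Notch ligand of the presomitic mesoderm. Each pool held the tissue between the otic placode and the newest somite without heart and endoderm, so somites came together with neural tube, surface ectoderm and vessels, and 1 Affymetrix MOE430A array was hybridised per pool. How many embryos made up a pool is not stated in the labels.

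Each deposited value is a ratio to a reference of its own probe set, with no signal level, so a gene can be compared between pools and not with another gene. A gene's value is the mean log2 ratio over its probe sets, printed here as a ratio. The 6 arrays limit the precision, and the SE of a difference had a median of 0.0945 among the members and 0.0869 over all genes (log2). The ratios keep no level against which the labelled tissue could be checked, and no marker can be called absent. Dll3 itself, by 1 probe set, had ratios of 0.996, 1.01 and 0.941 in the mutant pools 1 to 3, against 0.96, 1 and 1.03 in the wild-type pools 1 to 3. No source used here places that probe set against the insertion, so it does not check the labels.

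Integrins are cell surface receptors, each made of an alpha and a beta chain, that link the matrix outside a cell to actin inside it. Laminins are trimers of an alpha, a beta and a gamma chain and form the sheet of a basement membrane, which nidogens and perlecan join to collagen. In mouse and chick embryos, fibronectin and its receptor of the alpha5 and beta1 chains are needed when paraxial mesoderm cells become an epithelial somite, and a laminin matrix surrounds the somite once it has formed. Versican and tenascin-C are components of the embryonic matrix.

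The promoters of 2 genes are shown because Vcan and Tnc head the matricellular class in the results below and because Dll3 belongs to the Notch pathway, whose DNA-binding factor is RBPJ. They run 5′ to 3′ on the strand of the gene, from 250 bases before the RefSeq start to 50 after it (build GRCm38.p6), with the RBPJ core TGGGAA, searched on both strands, in capitals. Vcan lies on the minus strand at chr13:89742463-89742762, and the first listed start of Tnc on the minus strand at chr4:64046966-64047265.
Vcan: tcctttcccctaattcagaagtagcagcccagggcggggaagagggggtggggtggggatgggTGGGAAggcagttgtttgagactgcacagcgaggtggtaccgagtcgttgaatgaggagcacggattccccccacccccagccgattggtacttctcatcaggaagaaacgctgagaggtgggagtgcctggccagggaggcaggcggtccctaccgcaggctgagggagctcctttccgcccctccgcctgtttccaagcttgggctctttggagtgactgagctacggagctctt
Tnc: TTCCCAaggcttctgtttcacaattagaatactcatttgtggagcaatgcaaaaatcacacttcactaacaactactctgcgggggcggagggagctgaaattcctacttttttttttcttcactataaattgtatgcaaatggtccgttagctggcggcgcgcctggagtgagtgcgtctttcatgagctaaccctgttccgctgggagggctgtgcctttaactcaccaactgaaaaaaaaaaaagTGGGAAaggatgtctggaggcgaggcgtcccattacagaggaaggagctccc
The Vcan window held the core once, with its first base at -187 from the start, and the Tnc window held it at its first base and again 2 bases before the start. Of the 24 members with a promoter in the RefSeq table, 9 (37.5%) held the core, against 25.5% of 27025 promoters, 1 per gene. The other 7 were Dag1, Fbln1, Hspg2, Lama2, Lamb1, Lamb3 and Nid1. The GC box GGGCGG stood in 15 of the 24 (62.5%, against 35.9% of all promoters) and the TATA box TATAAA in Tnc alone (4.17%, against 14.2%). Itga8 held none of these 3 motifs and Itgb5 held GC boxes, and a match describes letters in a window.

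The comparison of Dll3 mutant with wild-type pools asked which of these genes differ in somite-level tissue when Dll3 is disrupted. No member passed an adjusted p of 0.05 in limma (the smallest was 0.9997), and neither did any of the 12393 genes (0%). Of the 38 members, 23 lay on the positive and 15 on the negative side (median log2 difference 0.024), against 51.9% positive and a median of 0.0035 over all genes. At an unadjusted p under 0.05 there were 3 members, Vcan, Itgb5 and Itga8, all higher in the mutant pools, where the share over all genes was 1.31% higher and 1.36% lower. The groups did not overlap in 3 members: Itgb5 and Tnc were higher in every mutant pool (3.98% of all genes) and Lamc3 lower in every mutant pool (3.49% of all genes). With 3 pools against 3, the exact permutation test cannot go below p = 0.1. For 37 of the 38 members the 95% interval of the difference lay within 1.5-fold in either direction, the exception being Vcan.

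**Figure D1:**
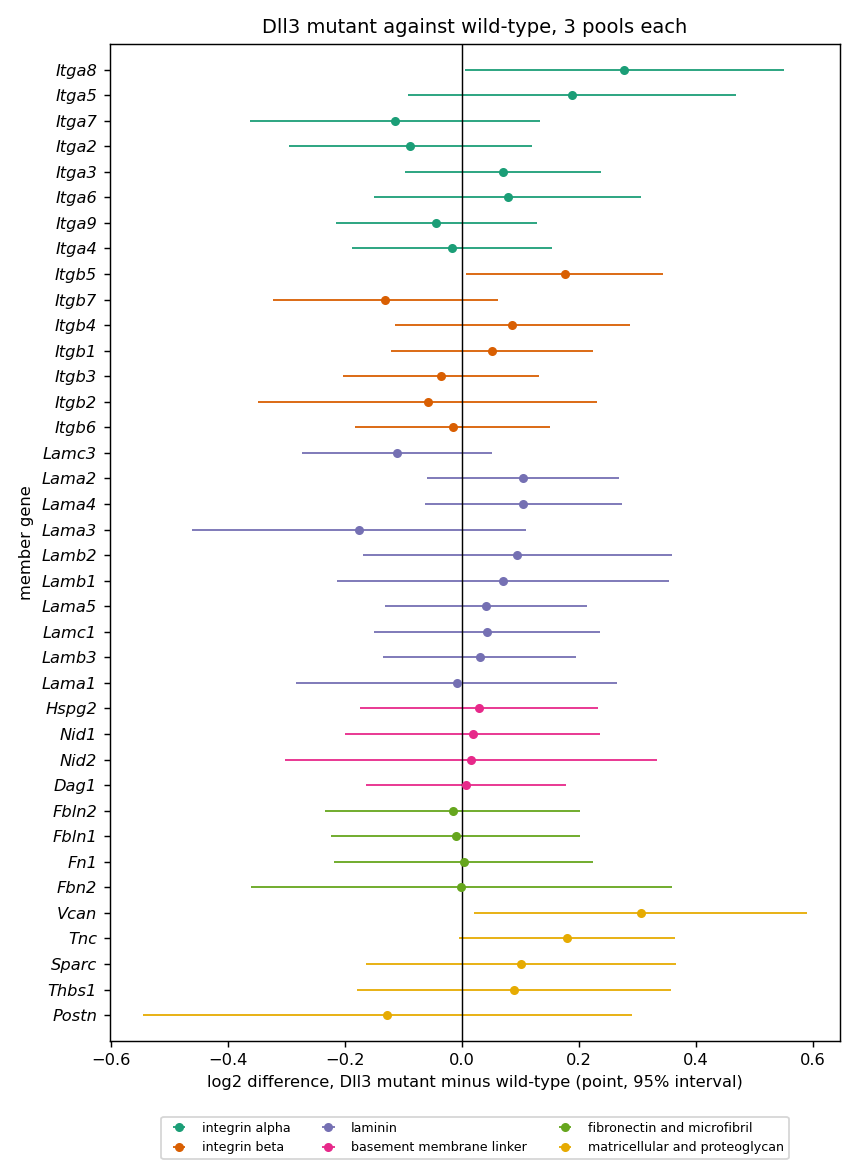
Log2 difference between 3 Dll3 mutant and 3 wild-type pools for the 38 member genes, grouped by role. Points are limma estimates and lines their 95% intervals; the intervals of Vcan, Itga8 and Itgb5 leave out 0, and 25 of the 38 points lie within 0.1 of it.

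The count of 3 changed when single pools were left out. Leaving out mutant replicate 3 gave 0, with Vcan at 0.31 (SE 0.152), Itgb5 at 0.17 (SE 0.0892) and Itga8 at 0.16 (SE 0.115). Leaving out wild-type replicate 1 also gave 0, with Vcan at 0.23, Itgb5 at 0.15 and Itga8 at 0.25. Leaving out replicate 2 of either genotype gave 1, leaving out mutant replicate 1 gave 4 and leaving out wild-type replicate 3 gave 5. The share of all genes at an unadjusted p under 0.05 moved as well, from 2.67% in the main fit. Omitting mutant replicates 1, 2 and 3 in turn changed this share to 5.1%, 2.03% and 2.31%. For the wild-type replicates in the same order the shares were 2.78%, 1.4% and 5.51%. The pools also differ in their sex-linked transcripts: a score of Xist less the average of Eif2s3y, Kdm5d and Uty was 0.0449, 0.814 and 0.729 in the mutant pools and -0.085, -1.48 and -1.73 in the wild-type pools (log2), with no overlap between the genotypes. With that score as a covariate no member had an unadjusted p under 0.05 (1.26% of all genes did), and the SEs of the 3 genes were larger. Vcan was at 0.32 (SE 0.24), Itgb5 at 0.20 (SE 0.146) and Itga8 at 0.40 (SE 0.225). Because the score does not overlap between the genotypes, sex and genotype cannot be told apart in these pools.

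Among the matricellular and proteoglycan genes, 4 of 5 had a positive difference, with a median of 0.10, and 2 of 5 with the sex score as a covariate. Vcan encodes versican, a large proteoglycan that binds hyaluronan. Its ratios were 0.948, 1.37 and 1.13 in the mutant pools, against 0.825, 1.01 and 0.937 in the wild-type pools. Mutant replicate 2 stood highest and wild-type replicate 1 lowest, and the groups overlapped because mutant replicate 1 lay below wild-type replicate 2. The means were 1.15 ± 0.21 in mutant and 0.923 ± 0.0913 in wild-type pools (SD, n = 3 each), a log2 difference of 0.31 (SE 0.128, 95% interval 0.021 to 0.59, limma p = 0.038, adjusted p = 0.9997, exact permutation p = 0.2). All 3 of its probe sets were on the positive side, at 0.27, 0.28 and 0.36. Without mutant replicate 2 the difference was 0.17.

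Tnc encodes tenascin-C, a matrix protein of migrating mesenchyme. It had ratios of 1.01, 1.11 and 1.2 in the mutant pools, against 0.993, 0.98 and 0.947 in the wild-type pools. Every mutant pool lay above every wild-type pool, but the lowest mutant pool, replicate 1, was close to the wild-type ones. The log2 difference was 0.18 (SE 0.0831, limma p = 0.055, adjusted p = 0.9997, exact permutation p = 0.1). It was 0.12 without mutant replicate 3 and 0.061 with the sex score. Sparc, a collagen-binding matrix protein, was at 0.10 and Thbs1, thrombospondin, at 0.090, each with overlapping groups. Neither sign held: leaving out wild-type replicate 2 put Sparc at -0.0025, leaving out replicate 1 of that genotype put it at 0.21, and Thbs1 was at -0.047 without wild-type replicate 3. Postn, periostin, was at -0.13 (SE 0.188) and had the widest spread among the members of this class: 1.03, 1.26 and 0.746 in the mutant pools, against 1.37, 0.938 and 0.973 in the wild-type pools. Without mutant replicate 3 it was at 0.075, and without mutant replicate 2 at -0.30.

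**Figure D2:**
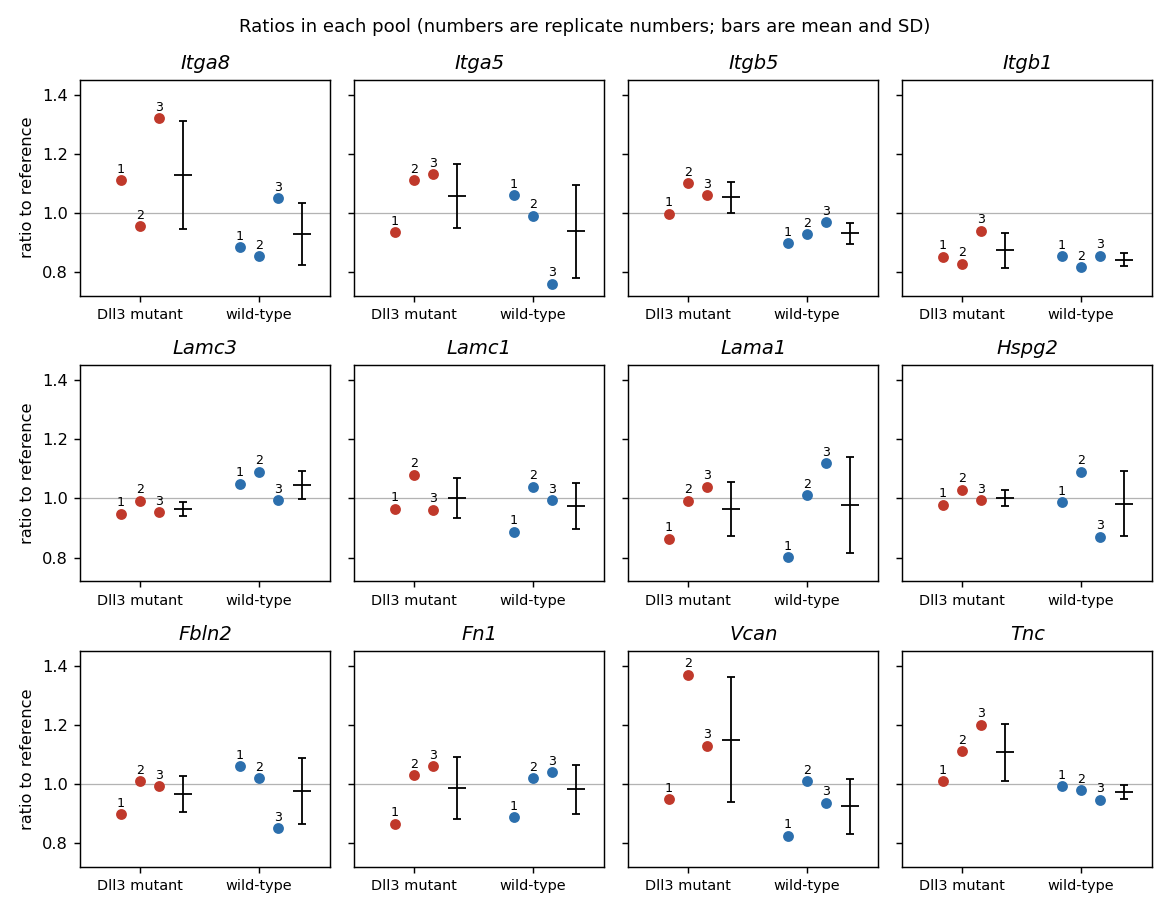
Ratio to the reference in each pool for 12 member genes, Dll3 mutant pools in red and wild-type pools in blue, with replicate numbers beside the points and the mean with its SD as black bars. Itgb5 and Tnc sit higher and Lamc3 lower in all 3 mutant pools, while the other 9 genes overlap.

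Markers of other cells, in lists also chosen with earlier results of these data known, were followed beside these genes. Of 10 marker lists, the skeletal muscle list (Myog, Myod1, Tnnt1, Actc1, Acta1 and Chrna1) was the only one whose mean level did not overlap between the groups. Its level was 0.151, 0.342 and 0.0329 in the mutant pools 1 to 3 and ran between -0.119 and -0.059 in the wild-type pools (log2). In that list 5 of 6 genes were higher. The endothelial list ran between -0.102 and 0.0468 in mutant and between -0.0495 and 0.0025 in wild-type pools. The surface ectoderm list, with 6 of 7 genes higher, ran between -0.0577 and 0.144 in mutant and between -0.192 and 0.129 in wild-type pools. The paraxial mesoderm list, with 5 of 7 genes lower, ran between -0.232 and 0.0626 in mutant and between 0.0221 and 0.18 in wild-type pools, and the other 6 lists overlapped too. In that list Uncx, a transcription factor of the caudal somite, was at -0.998 (SE 0.124, adjusted p = 0.116), and the other 6 genes lay between -0.23 and 0.039. No marker passed the adjusted threshold. The part of these markers in the values of the matrix genes was not tested. In such mixed tissue, fewer cells of a type and less RNA per cell cannot be told apart.

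The integrin alpha chains had 4 positive and 4 negative differences, with a median of 0.027. Itga8, whose chain pairs with beta1 and binds fibronectin, tenascin-C and nephronectin, was the farthest from 0. Its ratios were 1.11, 0.954 and 1.32 in the mutant pools, against 0.884, 0.853 and 1.05 in the wild-type pools. Mutant replicate 3 stood highest, and mutant replicate 2 lay below wild-type replicate 3, so the groups overlapped. This gave a log2 difference of 0.28 (SE 0.123, 95% interval 0.0047 to 0.55, limma p = 0.047, adjusted p = 0.9997, exact permutation p = 0.2). It was 0.16 without mutant replicate 3, and it rests on 1 probe set.

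Itga5, the alpha chain of the main fibronectin receptor, had ratios of 0.934, 1.11 and 1.13 in the mutant pools, against 1.06, 0.991 and 0.76 in the wild-type pools. The low value of wild-type replicate 3 stood apart, and the groups overlapped. The estimate was 0.19 on the log2 scale (SE 0.126, limma p = 0.17, adjusted p = 0.9997, exact permutation p = 0.4). It was 0.045 without wild-type replicate 3 and -0.20 with the sex score, so its direction did not hold. Its 2 probe sets gave 0.30 and 0.075.

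Among the receptors for laminin, Itga3 (0.070) and Itga6 (0.078) were on the positive side and Itga7 (-0.11), the form of skeletal muscle, on the negative side. Itga2, the chain of a collagen receptor, was at -0.088. Itga4 and Itga9, which share VCAM1 as a ligand, were at -0.017 and -0.043. The groups of all 8 alpha chains overlapped.

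Of the integrin beta chains, 3 were on the positive and 4 on the negative side, with a median of -0.016. Itgb5, which pairs with the alphav chain and binds vitronectin, had ratios of 0.997, 1.1 and 1.06 in the mutant pools, against 0.897, 0.928 and 0.968 in the wild-type pools. Every mutant pool lay above every wild-type pool. The means were 1.05 ± 0.0534 in mutant and 0.931 ± 0.0354 in wild-type pools (SD, n = 3 each). The log2 difference was 0.18 (SE 0.0757, 95% interval 0.0076 to 0.34, limma p = 0.042, adjusted p = 0.9997, exact permutation p = 0.1). It kept its sign in all 16 alternatives, between 0.14 and 0.25.

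The 4 probe sets of Itgb5 differed in size. One gave 0.31, with ratios of 1.06, 1.1 and 1.14 in the mutant pools and 0.938, 0.855 and 0.877 in the wild-type pools, and the others gave 0.059, 0.085 and 0.25 with overlapping groups. Its partner Itgav, which is no member, had a log2 difference of -0.0087 (SE 0.0726).

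Itgb1, the beta chain shared by most matrix receptors, had ratios of 0.852, 0.828 and 0.939 in the mutant pools, against 0.854, 0.816 and 0.855 in the wild-type pools. Mutant replicate 3 stood above the other 5 pools, which lay close together. Its log2 difference was 0.051 (SE 0.0776, limma p = 0.52, exact permutation p = 0.6). The ratios lay below 1 because 2 of its 6 probe sets had medians of 0.562 and 0.718 over the pools. Without rows of median ratio below 1 its difference was 0.0855. Itgb4, which pairs with alpha6 in hemidesmosomes, was at 0.086. Itgb7 and Itgb2, both chains of leukocyte integrins, were at -0.13 and -0.059, Itgb3, of platelets, at -0.036, and Itgb6, of epithelia, at -0.016.

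Of the 10 laminin chains, 7 were on the positive and 3 on the negative side, with a median of 0.042. Without mutant replicate 2, or without wild-type replicate 1, 5 of the 10 were positive. Lama1, Lamb1 and Lamc1 encode the chains of the main laminin of early embryonic basement membranes. Lama1 had ratios of 0.864, 0.992 and 1.04 in the mutant pools, against 0.802, 1.01 and 1.12 in the wild-type pools. The pool numbered 1 was lowest and the pool numbered 3 highest in each genotype. Between genotypes Lama1 differed by -0.0087 on the log2 scale (SE 0.124, 95% interval -0.28 to 0.27, exact permutation p = 0.9). Lamb1 was at 0.070 (SE 0.128), also with wild-type replicate 1 lowest and wild-type replicate 3 highest of all pools.

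Lamc1 had ratios of 0.965, 1.08 and 0.962 in the mutant pools, against 0.888, 1.04 and 0.993 in the wild-type pools. The pool numbered 2 was highest in each genotype. Its log2 difference was 0.043 (SE 0.0871, limma p = 0.64, exact permutation p = 0.6).

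Lamc3, a gamma chain of the nervous system and some other tissues, had ratios of 0.949, 0.992 and 0.954 in the mutant pools, against 1.05, 1.09 and 0.994 in the wild-type pools. Every mutant pool lay below every wild-type pool, although mutant replicate 2 and wild-type replicate 3 were nearly equal, and neither of its 2 probe sets (-0.16 and -0.060) separated the groups alone. The log2 difference was -0.11 (SE 0.0733, limma p = 0.16, adjusted p = 0.9997, exact permutation p = 0.1). The difference farthest from 0 in the class was that of Lama3, of epithelial laminins, at -0.18 (SE 0.128), with overlapping groups. It was -0.069 without mutant replicate 3, where Lamb2 (0.18) lay farther from 0, and -0.31 without wild-type replicate 3.

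On the positive side, Lama4, a chain of vessel walls, and Lama2, a chain of muscle basement membrane, were both at 0.10. Lamb2 was at 0.095, with a ratio of 1.31 in mutant replicate 2 that no other pool reached, and at -0.042 without that pool. Lama5 and Lamb3 were at 0.042 and 0.031.

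**Figure D3:**
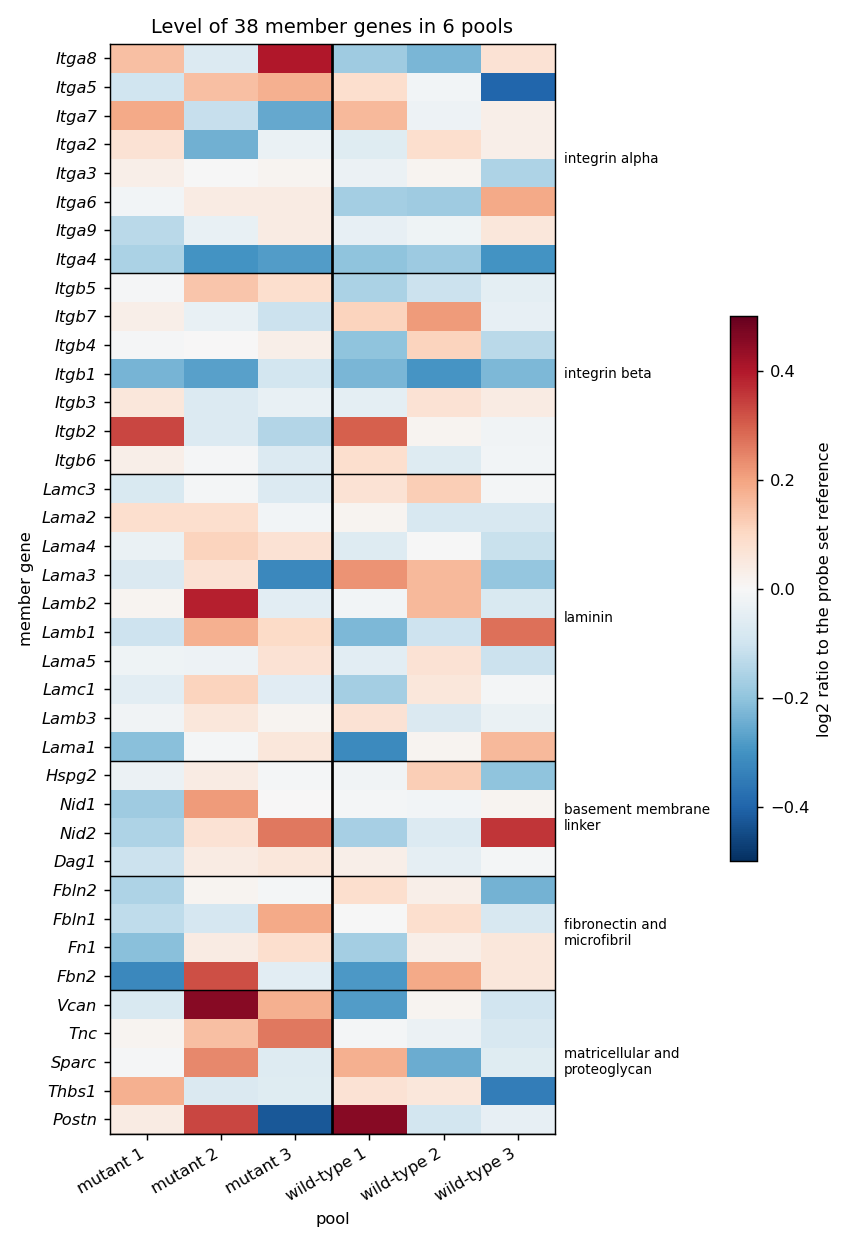
Log2 ratio of the 38 member genes (rows, by role) in 3 Dll3 mutant pools (left of the line) and 3 wild-type pools (right), red above and blue below the reference. Only Itgb5, Tnc and Lamc3 have no overlap between the genotypes. Lama1, Nid2 and Fn1 are low in the pools numbered 1 of each genotype. Itgb1 and Itga4 are below the reference in every pool through probe sets whose median ratio is below 1.

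The linkers of basement membranes lay close to 0. Hspg2 (perlecan), Nid1, Nid2 and Dag1 (dystroglycan, a laminin receptor) were at 0.030, 0.018, 0.015 and 0.0072, with 1 of the 4 positive under the sex score. Hspg2, the one with the smallest p, had ratios of 0.979, 1.03 and 0.994 in the mutant pools, against 0.987, 1.09 and 0.87 in the wild-type pools. The mutant pools lay inside the wild-type range (limma p = 0.75, exact permutation p = 0.8, 95% interval of the log2 difference -0.17 to 0.23).

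Fibronectin and the microfibril genes did not separate the groups either. Fn1 had ratios of 0.866, 1.03 and 1.06 in the mutant pools, against 0.888, 1.02 and 1.04 in the wild-type pools. The 2 genotypes ran almost level within each number, low in number 1. Fn1 differed by 0.0036 on the log2 scale (SE 0.0996, 95% interval -0.22 to 0.22, limma p = 0.97, exact permutation p = 1). Fbn2, fibrillin of the embryonic matrix, spread more widely, with 0.8, 1.25 and 0.963 in the mutant pools, against 0.82, 1.14 and 1.04 in the wild-type pools, and a log2 difference of -0.0008 (SE 0.162). Fbln2, a fibulin, had ratios of 0.898, 1.01 and 0.992 in the mutant pools, against 1.06, 1.02 and 0.85 in the wild-type pools. Its difference of -0.016 (SE 0.0982, limma p = 0.88, exact permutation p = 0.8) was close to that of Fbln1, at -0.011.

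Some members had their extreme values in pools of the same number, a pattern looked for after the values were seen. The shares were near those of the whole table or below them, except for the highest values in the pools numbered 2. The pools numbered 1 were the lowest pair for 6 members (Itga9, Lamb1, Lama1, Nid2, Fn1 and Fbn2), 15.8% against 12% of all genes, and the highest pair for 10.5% against 11.6%. The pools numbered 2 were the lowest pair for 2.63% against 4.93%, and the highest for Lamb2, Lamc1, Hspg2 and Fbn2, 10.5% against 4.14%. The pools numbered 3 were the lowest pair for 7.89% against 11.1%, and the highest for Itga6, Itga9, Itgb1, Lama1, Nid2 and Fn1, 15.8% against 15.7%. The mean log2 level over the 38 members was -0.0361, 0.0483 and -0.0003 in the mutant pools, against -0.0311, -0.0067 and -0.0461 in the wild-type pools, and the groups overlapped.

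Probe sets of the same gene often differed in sign. Of the 72 probe sets, 45 had a positive difference, 4 had an unadjusted p under 0.05 and were higher in the mutant pools (1.38% of all probe sets), and none was lower at that p (1.25%). None passed the adjusted threshold (0% of 22626). The 4 were 1 each of Itgb5 and Itga5 and 2 of Vcan. In 5 probe sets every mutant pool lay above every wild-type pool (4.07% of all), 1 each of Itgb5, Itga3, Lama4, Tnc and Vcan, and in none did every mutant pool lie below (3.39%).

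Among the 21 genes with several probe sets, 12 had differences on both sides of 0, and in 10 of these they lay over 0.1 apart. For Itga9, 1460285_at gave -0.13 and 1420860_at 0.11, and for Itgb1, 1426920_x_at gave -0.087 and 1438119_at 0.21. For Itga3 the ends were 1460305_at at -0.0021 and 1455158_at at 0.18, and for Itga4 1450155_at at -0.056 and 1427615_at at 0.061. In the laminins, 1423886_at gave -0.053 and 1423885_at 0.14 for Lamc1, 1424114_s_at gave -0.020 and 1424113_at 0.13 for Lamb1, and 1427009_at gave -0.013 and 1427010_s_at 0.096 for Lama5. For Dag1 the ends were 1426779_x_at at -0.069 and 1456131_x_at at 0.089, for Fbln1 1422540_at at -0.063 and 1451119_a_at at 0.042, and for Fn1 1437218_at at -0.051 and 1426642_at at 0.058. All probe sets of Vcan, Itgb5, Itga5, Thbs1, Lama4, Itga6, Sparc, Hspg2 and Lamc3 had 1 sign, although those of Itgb5 lay between 0.059 and 0.31 and those of Itga5 between 0.075 and 0.30.

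**Figure D4:**
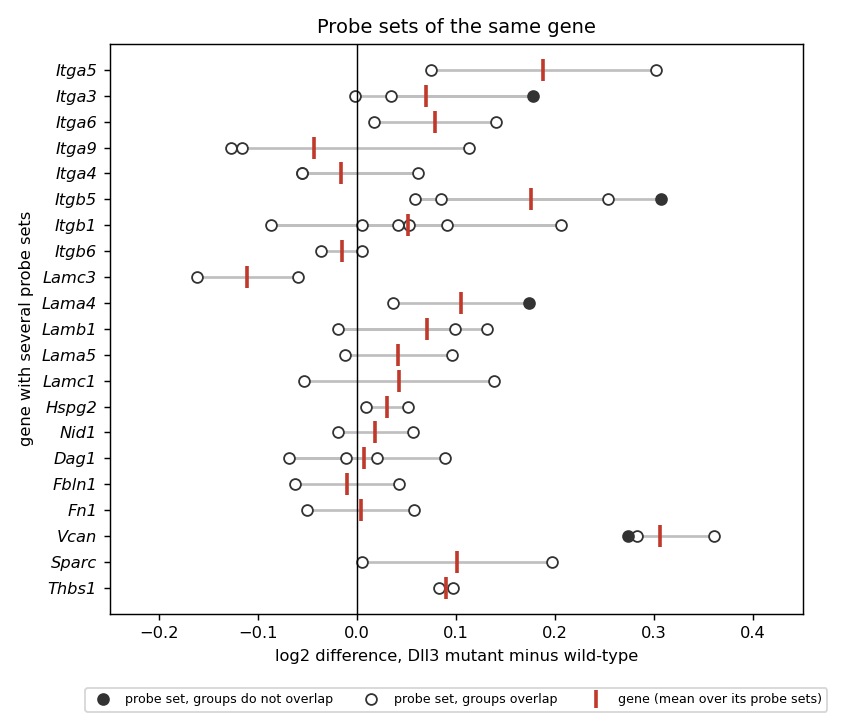
Log2 difference, Dll3 mutant minus wild-type, of each probe set (circles) of the 21 member genes with several, and of the gene as their mean (red bar). Filled circles are the probe sets whose groups do not overlap, 1 each of Itga3, Itgb5, Lama4 and Vcan, and the probe sets of 12 genes fall on both sides of 0.

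Genes that act with these members were counted from lists chosen beside them. Of 20 measured adaptors between integrins and actin, 16 were on the positive side, with a median of 0.041, against 51.9% positive over all genes, and none passed the adjusted threshold. The mean level of the list overlapped between the groups, running between -0.0366 and 0.0635 in mutant and between -0.0617 and -0.00722 in wild-type pools. The farthest was Tgfb1i1, a paxillin-related adaptor also called Hic-5, with ratios of 1.03, 1.16 and 1.04 in the mutant pools, against 0.971, 0.849 and 0.695 in the wild-type pools. Its groups did not overlap, with a log2 difference of 0.37 (SE 0.116, limma p = 0.0094, adjusted p = 0.9997, exact permutation p = 0.1). Parvb, a parvin that binds integrin-linked kinase, lay the other way, with ratios of 0.968, 0.99 and 0.86 in the mutant pools, against 1.07, 1.04 and 1.01 in the wild-type pools. Its groups did not overlap either, at -0.15 (SE 0.0803, limma p = 0.085, adjusted p = 0.9997, exact permutation p = 0.1). The groups of the other adaptors overlapped. Over all genes, 3.98% were higher and 3.49% lower in every mutant pool. Of 16 matrix remodelling genes, 6 were positive and 10 negative (median -0.0081), with Mmp14, a membrane protease, at 0.088 (SE 0.0824). Of 8 modifiers and partners of dystroglycan, 5 were positive and 3 negative (median 0.023), and Pomt2, which adds mannose to dystroglycan, was at -0.084 (SE 0.0879). None of these 24 genes had an unadjusted p under 0.05, and Tgfb1i1 was the only adaptor that did (1.31% of all genes were higher at that p).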

How the data were processed

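Total RNA of 6 pools of embryo tissue was hybridised to 6 Affymetrix MOE430A arrays. The authors deposited 1 table of 22690 probe sets. The values as deposited read as a ratio that the authors took to each probe set's own reference: 93.4% of rows have a median of 1 over the pools and none a higher one. The submitters' processing notes name RMA and MAS5 without version or role, and how the ratios were scaled is not stated there.

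After 64 control probe sets were left out, log2 ratios were averaged over the probe sets of a gene (20380 with 1 symbol, updated for 20351 through GRCm38.p6 gene identifiers; 691 with several and 1555 with none were not named). All 12393 genes, and all 22626 probe sets, were fitted by genotype using R 4.3.3 and its package limma 3.58.1. The fit used lmFit, then eBayes with no trend, with two-sided p-values and a Benjamini-Hochberg adjusted p under 0.05. A test of the fit on simulated data required recovery only of differences larger than that of any member. Figures were drawn with matplotlib 3.10.9. Nothing says how many litters or days the pools span, so p-values measure the spread between these pools. The members, lists and tests were chosen with earlier results of these data known. Values in every pool are given for members whose groups do not overlap, the member of smallest p in each role, and Fn1, Itga5, Itgb1, Lama1, Lamc1 and Vcan; other members are given by difference. Lamb2, Postn, Fbn2 and the adaptors named were added after their values were seen. The 16 alternatives varied the variance model, array weights, scaling, probe sets, pools, the replicate number and the sex score.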

Additional observations from a re-analysis of the deposited data

How the results depend on the processing

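In none of 16 alternatives did a member gene pass the adjusted threshold, nor a member probe set in the 15 that apply, and the count of positive members stayed between 20 and 28. The count at an unadjusted p under 0.05 was 3. It was 5 with array weights, 5 with the replicate block, 1 without both pools numbered 3 and 0 with the sex score as a covariate. With single pools left out it was 0 to 5. Not all of these genes were higher in the mutant pools. Itgb7 was among the 5 with array weights and Lama3 among the 5 with the block, both lower. Without both pools numbered 3 the share over all genes was 3.81%. Under the sex score Vcan was at 0.324, Itgb5 at 0.2 and Itga8 at 0.403, with larger SEs than in the main fit. Tnc moved to 0.0612, Sparc to -0.219 and Postn to -0.562 with that score, and sex cannot be told apart from genotype here. The replicate block leaves every difference as it is. The labels give only a replicate number, and the main fit did not take the numbers as pairs. Over all genes, deviations of same-numbered pools from their group means correlated at 0.362, -0.038 and 0.398 for numbers 1 to 3. Mutant replicate 2 there correlated best with wild-type replicate 3. Over the members the values were 0.532, 0.0804 and 0.456, and each mutant pool correlated best with its own number. Genes are not independent replicates. With the block, limma p was 0.00222 for Vcan and 0.00349 for Itga8 (adjusted p = 0.95 for each). Over all genes the count at an unadjusted p under 0.05 was 331, against 617 with the replicate block and 156 under the sex covariate. It was 1200 once arrays were weighted, and leaving out single pools gave 174 to 683. The median of the members, 0.024, was 0.0088 to 0.0646 with single pools left out, the highest without mutant replicate 1. Vcan, Itga8, Itgb5, Tnc and Lamc3 kept their sign in all 16. Of the alternative values of the 12 genes, 167 kept their sign and 25 had the other, all of genes whose difference was small beside its SE, except Itga5. With array weights Hspg2 was at -0.0115 and Lama1 at 0.0788. Lama1 was at 0.0109 with quantile normalization and Fn1 at -0.00073 with median centring. Without both pools numbered 3, Hspg2 was at -0.0514, Fn1 at -0.00595, Itga5 at -0.00695 and Lama1 at 0.0422. Lamc1 was at -0.0533 by its most variable probe set. With the sex score Hspg2 was at -0.0397, Itga5 at -0.203 and Lama1 at 0.265. With single pools left out, Fbln2 ran between -0.115 and 0.0477, Lama1 between -0.145 and 0.099, Fn1 between -0.0672 and 0.0946, Lamc1 between -0.0221 and 0.0916, Itgb1 between -0.00246 and 0.0886 and Hspg2 between -0.0556 and 0.109. The cause was not tested. Ratios hold no signal over background, so a filter on dim probe sets could not be run.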
